A study of Mus musculus with 9 samples.

Results

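Hox genes encode homeodomain transcription factors that give cells along the body axis, the limbs and the genital region their positional identity. In mammals they lie in 4 clusters, and within a cluster their order along the chromosome matches the order in which they are switched on along the head-to-tail axis, with low-numbered (anterior) genes at the 3′ end and high-numbered (posterior) genes at the 5′ end. Fibroblasts taken from different body sites keep different combinations of active Hox genes in culture, so the combination serves as a record of the site of origin. Genes with the same number in different clusters are paralogs, descended from one ancestral gene. The members described here were all rows of the count table whose Ensembl identifier maps to a mouse symbol of the form Hox, a cluster letter a to d and a number. The rule found 39 genes of 52661 rows, with 11 in Hoxa, 10 in Hoxb, 9 in Hoxc and 9 in Hoxd.

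RNA was sequenced from mouse embryonic fibroblasts (MEFs), connective-tissue cells grown from embryos, of strain C57BL/6 and immortalised with T/t antigen in all groups. The 3 groups, of 3 libraries each, were wild type cells, Ctr1-null cells (genotype Ctr1 -/-, called floxed in the titles) and Ctr1-null cells given the copper chelator BCS, bathocuproine disulfonic acid, at 500 µM for 48 hours according to the labels and 500 mM according to the series record. Ctr1, whose gene is Slc31a1, is a transporter that brings copper into the cell, and the series design calls the cells isogenic. All cells grew in a medium with a modified N2 supplement, EGF and FGF-2. The labels do not say from which part of the embryo the fibroblasts came, how the allele was deleted, or whether replicates were separate cultures, so p-values measure only the spread between these libraries, which may be technical. BCS was given to Ctr1-null cells alone, so in BCS-treated against wild type cells the parts of genotype and chelator cannot be told apart.

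Libraries held 38962036 to 57206337 counts. Levels are CPM, the counts of a gene scaled to a common library total (TMM), and 3 counts, the most that a listed 0 allows (counting error only), correspond to 0.0546 to 0.0811 CPM. Slc31a1 was at 56.1, 54.8 and 54.9 CPM in wild type libraries, 2.54, 3.88 and 1.40 CPM in Ctr1-null and 3.24, 2.54 and 1.69 CPM in BCS-treated cells, so all 6 null libraries were low, as labelled. Of 11 fibroblast markers, 8 reached 1 CPM in every library, and the list summed to 15470 to 19850 CPM. Thy1 and Lum stayed under 1 CPM in every library, and Dcn ranged from 0.0372 to 2.31 CPM. Some markers of other cell types were present too, such as epithelial Krt19 at 125.5 to 193 CPM and neural progenitor Nes at 107 to 223 CPM. On the same lists, 5 of 7 epithelial and 4 of 8 neural progenitor and glia markers stayed under 1 CPM in every library. A list of 7 fat-cell markers summed to 24.4 to 30.3 CPM in wild type libraries, 58.8 to 85.5 CPM in Ctr1-null and 67.4 to 81.8 CPM in BCS-treated libraries, with Adipoq, Plin1 and Cidec under 1 CPM in every library. Wild type replicate 1 stood apart from its group: it differed by over 2-fold from replicates 2 and 3 in 3.81% and 3.69% of the 18408 genes tested, against 0.255% between replicates 2 and 3 (on CPM plus 0.5). Calls of Hox genes against wild type, and the counts over all genes beside them, are therefore also given without it. For other named genes, results are given with all libraries only. In bulk samples, fewer cells with a transcript and less of it per cell cannot be told apart.

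The clusters differed in whether they were transcribed at all. Every Hoxa gene and the 5′ part of Hoxd, from Hoxd8 to Hoxd13, were at 1 CPM or more in all 9 libraries, which makes 17 genes. The 3′ Hoxd genes Hoxd1, Hoxd3 and Hoxd4 and all members of Hoxb and Hoxc lay below 0.3 CPM in every library. The Hoxa cluster (GRCm38 chromosome 6, 52155590 to 52260880) collected 92727 counts over the 9 libraries and the Hoxd cluster (chromosome 2, 74668310 to 74765142) 160725 counts. The Hoxb cluster (chromosome 11, 96194316 to 96368256) collected 107 counts and the Hoxc cluster (chromosome 15, 102921103 to 103036852) 92 counts. This division held in each library of each group, and no gene crossed 1 CPM between groups.

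Promoter sequence is shown for the 4 genes that later passed a test between groups (Hoxd12, Hoxd8, Hoxa13 and Hoxa11), for Hoxd13, the most abundant Hox transcript per length, and for Hoxd4, a barely transcribed gene on the far side of the boundary at Hoxd8, chosen after its values were seen. Each is the 250 bases before the RefSeq start (GRCm38.p6), written 5′ to 3′ on the gene's strand, with every CpG dinucleotide in capitals. The windows are chr2:74667975-74668224 (plus strand) for Hoxd13, chr2:74674763-74675012 (plus) for Hoxd12, chr2:74704365-74704614 (plus) for Hoxd8, chr2:74721728-74721977 (plus) for Hoxd4, chr6:52260881-52261130 (minus) for Hoxa13 and chr6:52245811-52246060 (minus) for Hoxa11.
Hoxd13: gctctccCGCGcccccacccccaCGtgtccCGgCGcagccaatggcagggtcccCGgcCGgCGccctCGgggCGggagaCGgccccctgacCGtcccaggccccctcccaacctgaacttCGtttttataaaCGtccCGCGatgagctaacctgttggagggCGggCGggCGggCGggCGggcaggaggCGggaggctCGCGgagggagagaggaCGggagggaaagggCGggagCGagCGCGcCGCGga
Hoxd12: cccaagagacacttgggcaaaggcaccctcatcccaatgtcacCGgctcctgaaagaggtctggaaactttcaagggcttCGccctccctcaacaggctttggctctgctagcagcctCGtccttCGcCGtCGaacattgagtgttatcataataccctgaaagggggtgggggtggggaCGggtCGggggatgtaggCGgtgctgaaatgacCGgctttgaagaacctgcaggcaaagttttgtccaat
Hoxd8: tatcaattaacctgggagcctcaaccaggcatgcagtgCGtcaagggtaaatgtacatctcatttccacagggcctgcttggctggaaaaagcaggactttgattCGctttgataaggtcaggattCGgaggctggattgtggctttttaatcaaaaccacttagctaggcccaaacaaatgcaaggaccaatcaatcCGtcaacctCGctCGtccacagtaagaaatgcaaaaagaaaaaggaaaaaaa
Hoxd4: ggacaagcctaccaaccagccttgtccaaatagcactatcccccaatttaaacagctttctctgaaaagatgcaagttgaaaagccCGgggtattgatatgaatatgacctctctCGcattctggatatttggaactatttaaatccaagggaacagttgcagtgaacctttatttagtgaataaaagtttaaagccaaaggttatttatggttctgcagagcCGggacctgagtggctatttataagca
Hoxa13: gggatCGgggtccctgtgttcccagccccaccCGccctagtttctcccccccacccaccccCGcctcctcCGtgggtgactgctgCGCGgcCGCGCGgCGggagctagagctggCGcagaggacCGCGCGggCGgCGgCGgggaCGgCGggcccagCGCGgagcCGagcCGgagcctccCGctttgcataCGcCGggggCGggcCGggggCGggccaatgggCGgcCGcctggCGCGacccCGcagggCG
Hoxa11: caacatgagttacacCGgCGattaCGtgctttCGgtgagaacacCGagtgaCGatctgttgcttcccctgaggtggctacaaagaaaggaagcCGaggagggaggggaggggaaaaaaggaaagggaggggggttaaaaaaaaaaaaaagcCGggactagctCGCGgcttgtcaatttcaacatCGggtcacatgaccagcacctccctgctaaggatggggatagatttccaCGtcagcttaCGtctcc

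The windows ranged widely in CpG content. Hoxa13 held 35 CpGs and Hoxd13 31, Hoxa11 held 13, Hoxd12 10, Hoxd8 6 and Hoxd4 3. RefSeq start sites were matched for 22 of the 39 genes, with 24 windows. For 21 of the 24, bases just after the start were found in a GENCODE M21 transcript of the gene. Hoxd13 was not among these, and its window ends at 74668224, short of the GENCODE gene start at 74668310. The 17 windows of transcribed genes held a median of 13 CpGs (range 2 to 35) at a median GC content of 59.2%, and the 7 windows of the other Hox genes held a median of 12 CpGs (3 to 24) at 58.0%. Over all 32851 windows in the table the medians were 6 CpGs and 52.4%. CpG counts thus overlapped between transcribed and untranscribed Hox genes.

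Short motifs were searched on both strands of the same windows as a description of the letters alone. TATAAA, the letters of the TATA box core, was in 4 of 24 Hox windows against 12.4% of all windows, wherever it lay in the window. In Hoxd13 it lay 124 and 126 bases before the start, on both strands in overlapping letters. In Hoxd4 it lay 10 bases before the start, on the other strand only. Whether these letters act as TATA boxes was not tested. TGACAG, a core bound by MEIS proteins, was in 2 Hox windows against 15.9% of all windows. TGATTNAT, a composite PBX-HOX site, was in 2 against 2.8%. CAATAAA, a core of posterior HOX proteins, was in 1 against 4.2%. The core of the metal response element was in 0 windows as TGCACNC, against 10.4% of all, and in 3 as TGCGCNC, against 12.5%, which were windows of Hoxd11, Hoxa5 and Hoxb4. The forms cannot match the same letters on the same strand.

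Levels per kilobase of exon (CPM per kb, over all annotated exons of a gene) allow genes to be ordered. Hoxd13 came first in every library, with a mean of 101.8 CPM per kb and a range of 93.3 to 117. Hoxa11 (15.8), Hoxa10 (14.1), Hoxd12 (13.6), Hoxa7 (10.8), Hoxd10 (10.7), Hoxa5 (10.6) and Hoxd11 (10.0) followed, each overlapping the next in range over the libraries. Hoxa6 was at 7.55 CPM per kb, Hoxa13 at 7.11 and Hoxa9 at 6.19, and these 3 also overlapped. Hoxd9 (2.51) lay below all of these without overlapping Hoxa9, and its lowest library, at 2.28, was level with the highest of Hoxd8. Lower still were Hoxd8 (1.54), Hoxa2 (1.34), Hoxa3 (1.29) and Hoxa4 (0.821), each overlapping the next, and Hoxd4, at 0.0523 CPM per kb, lay under them without overlap. Ranks in the middle depended on the length used: with the longest transcript in place of all exons, 3 of the 18 genes kept their rank, Hoxd13, Hoxa4 and Hoxd4.

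Summed over clusters, Hoxd supplied 62.5 to 67.7% of all Hox CPM per kb and Hoxa 32.3 to 37.5%, with at most 0.118% from Hoxb and 0.0616% from Hoxc. Posterior genes (numbers 9 to 13) supplied 82.2 to 85.2%, central genes (4 to 8) 12.95 to 15.5% and anterior genes (1 to 3) 1.66 to 2.33%. Hoxd13 alone was at 93.3 to 117 CPM per kb, against 123 to 174 for all of Hoxd and 70.75 to 89.8 for Hoxa. The Hoxd share, and the place of Hoxd above Hoxa, therefore rest largely on this 1 gene. The posterior share includes Hoxd13 too. Posterior Hoxa genes alone were at 38.0 to 52.4 CPM per kb, against 27.4 to 34.5 for all central genes. The Hoxd share was 66.0, 63.2 and 62.5% in wild type replicates 1, 2 and 3, 63.9, 62.5 and 63.2% in Ctr1-null and 63.9, 67.7 and 65.9% in BCS-treated libraries, with overlapping groups. The sum over all 39 genes was 212, 202 and 197 CPM per kb in wild type, 196, 210 and 220 in Ctr1-null and 229, 229 and 264 in BCS-treated libraries. The 3 BCS-treated libraries were the highest of the 9 in this sum, which is given without a test. Of this sum, Hoxd13 supplied 101, 99.5 and 94.5 in wild type, 93.3, 93.7 and 98.45 in Ctr1-null and 104, 114 and 117 in BCS-treated libraries.

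**Figure D1:**
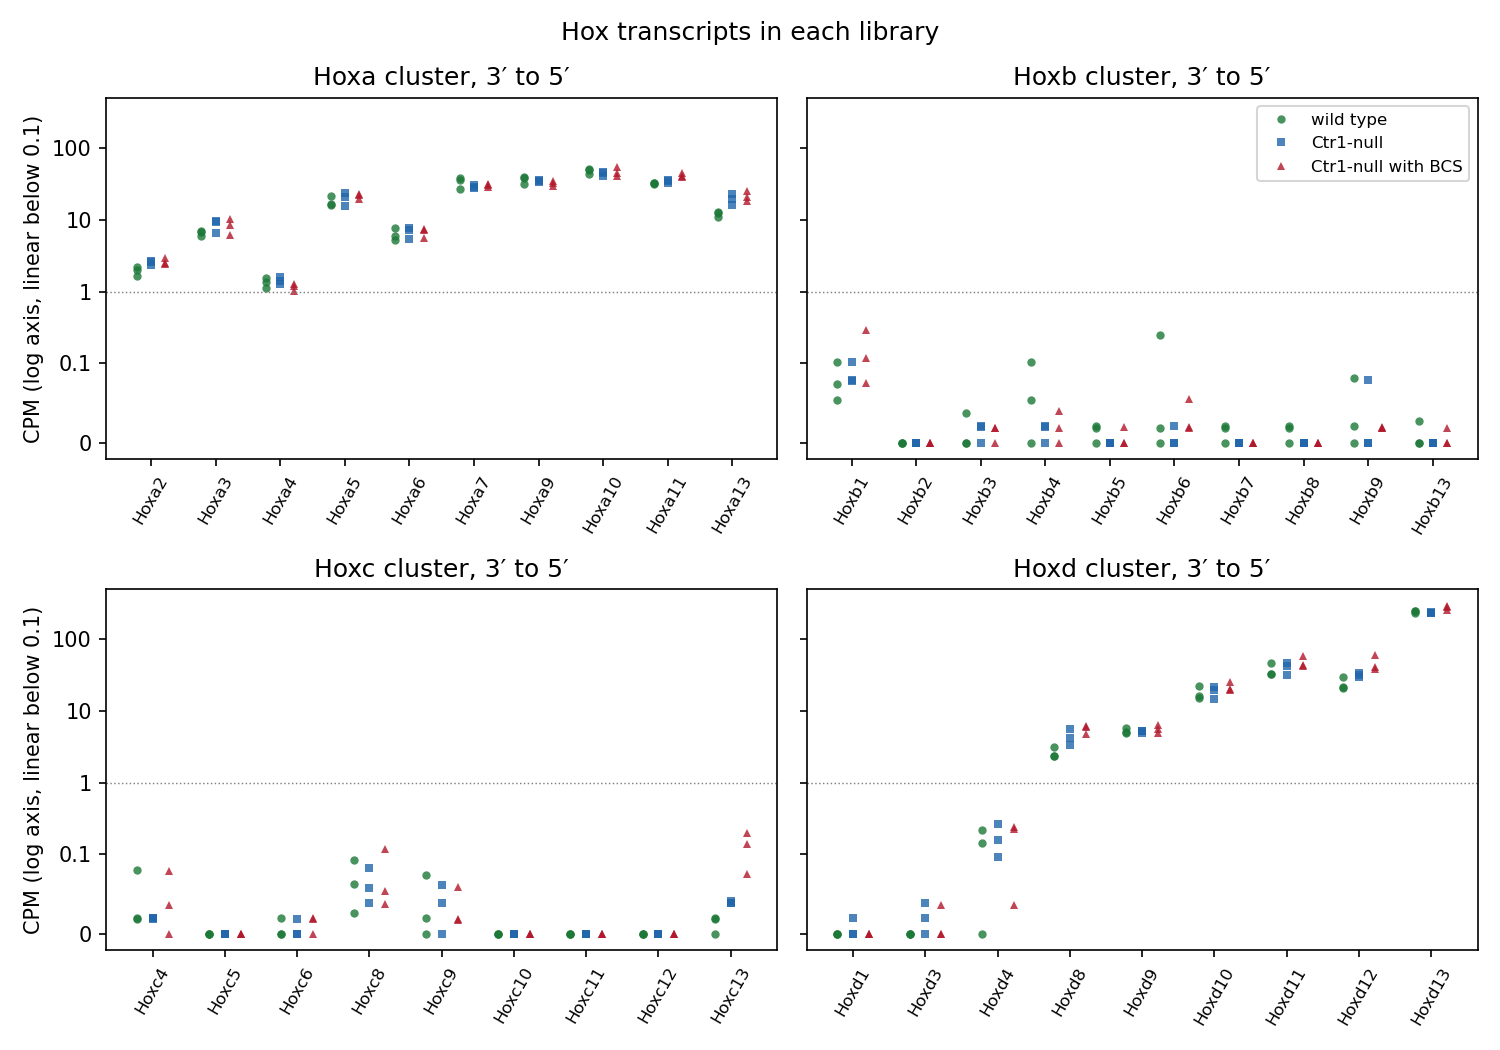
Level of Hox genes in CPM (vertical axis, logarithmic above 0.1 CPM and linear below), 1 panel per cluster with genes in 3′ to 5′ order and 1 point per library (circles wild type, squares Ctr1-null, triangles Ctr1-null with BCS). The Hoxa genes plotted and Hoxd8 to Hoxd13 lie above the dotted line at 1 CPM in all 9 libraries, and every other gene lies below 0.3 CPM.

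The anterior Hoxa genes pattern the hindbrain and neck region in the embryo. Hoxa2, which specifies the second pharyngeal arch, was at 1.64, 2.03 and 2.17 CPM in wild type libraries, 2.32, 2.62 and 2.66 CPM in Ctr1-null and 2.49, 2.44 and 2.95 CPM in BCS-treated libraries. All 6 null libraries, treated or not, lay above the 3 wild type ones. Hoxa3, needed for the thymus and parathyroid, was at 6.68, 5.89 and 6.93 CPM, 6.56, 9.22 and 9.52 CPM and 8.50, 6.23 and 10.2 CPM in the same order. Its groups overlapped, with replicate 1 of Ctr1-null and replicate 2 of BCS-treated cells inside the wild type range.

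Central Hoxa genes act in the neck and thorax. Hoxa4 was the lowest Hoxa transcript per length, at 1.12, 1.35 and 1.52 CPM in wild type libraries, 1.41, 1.28 and 1.61 CPM in Ctr1-null and 1.02, 1.27 and 1.20 CPM in BCS-treated libraries. The 3 BCS-treated libraries lay below the 3 untreated null ones by a narrow margin and overlapped wild type. Hoxa5, which acts in the shoulder region and the airways, was at 21.3, 16.2 and 16.7 CPM, 15.5, 20.7 and 23.6 CPM and 22.4, 19.6 and 23.2 CPM. Hoxa6 was at 7.72, 5.24 and 5.95 CPM, 5.33, 7.69 and 7.25 CPM and 7.42, 5.49 and 7.31 CPM. For both genes replicate 1 of wild type and replicates 2 and 3 of Ctr1-null were high and wild type replicates 2 and 3 and Ctr1-null replicate 1 were low, so the spread within groups was as wide as that between them. Hoxa7 was at 27.3, 38.7 and 35.9 CPM, 28.8, 30.4 and 27.5 CPM and 31.4, 28.3 and 30.5 CPM. Here wild type replicates 2 and 3 were the highest of the 9 libraries and wild type replicate 1 the lowest.

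Posterior Hoxa genes pattern the limbs and the urogenital tract. Hoxa9, also known for its role in blood progenitors, was at 31.7, 39.1 and 37.7 CPM in wild type libraries, 33.9, 36.5 and 35.2 CPM in Ctr1-null and 32.8, 29.2 and 34.7 CPM in BCS-treated libraries. Hoxa10, which acts in the upper limb segment and the uterus, was at 44.0, 50.4 and 48.9 CPM, 41.0, 45.7 and 45.4 CPM and 45.0, 40.6 and 54.2 CPM. Neither gene separated the groups. Hoxa11, which acts in the forearm and lower leg, was at 31.3, 32.8 and 32.9 CPM, 36.3, 32.8 and 34.6 CPM and 40.5, 39.8 and 44.4 CPM. All BCS-treated libraries lay above the other 6, and wild type and untreated null libraries overlapped. Hoxa13, which acts in the hand and foot and the genital tubercle, was at 12.9, 12.4 and 10.8 CPM, 16.0, 19.6 and 22.7 CPM and 20.6, 18.1 and 25.2 CPM. Every null library, treated or not, lay above every wild type one, and treated and untreated null libraries overlapped.

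In the transcribed part of Hoxd, Hoxd8 is the gene nearest the boundary. It was at 3.12, 2.38 and 2.38 CPM in wild type libraries, 5.59, 3.35 and 4.28 CPM in Ctr1-null and 4.79, 5.96 and 6.25 CPM in BCS-treated libraries. All 6 null libraries were above wild type, whereas treated and untreated null libraries overlapped. Hoxd9, a gene of the proximal limb, was at 5.07, 4.87 and 5.72 CPM, 5.27, 5.27 and 4.92 CPM and 5.70, 5.02 and 6.41 CPM, with overlapping groups. Hoxd10, which acts in lumbar motor neurons and the limb, was at 22.1, 15.3 and 16.0 CPM, 14.8, 19.6 and 21.7 CPM and 20.2, 19.6 and 25.5 CPM. Hoxd11, a forearm gene like its paralog Hoxa11, was at 47.3, 33.0 and 33.0 CPM, 31.6, 43.0 and 46.9 CPM and 43.0, 43.5 and 58.1 CPM. For Hoxd10 and Hoxd11, as for Hoxa5 and Hoxa6, wild type replicate 1 lay with Ctr1-null replicates 2 and 3, above Ctr1-null replicate 1 and wild type replicates 2 and 3.

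The genes at the 5′ end of Hoxd act in the digits and the external genitalia. Hoxd12 was at 29.9, 21.9 and 20.7 CPM in wild type libraries, 30.0, 32.1 and 33.8 CPM in Ctr1-null and 41.2, 38.96 and 60.7 CPM in BCS-treated libraries. The groups followed each other without overlap, with the highest wild type library just under the lowest untreated null one and BCS-treated replicate 3 far above the rest. Hoxd13, whose mutations cause fused and extra digits, was at 251, 247 and 235 CPM, 232, 233 and 244 CPM and 259, 282 and 290 CPM. BCS-treated libraries were the 3 highest, and wild type and untreated null libraries overlapped. It was also the steadiest Hox transcript, with a highest library 1.25 times its lowest, against 2.93 times for Hoxd12 and 2.63 times for Hoxd8.

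Below the boundary, Hoxd4, which acts in the neck, passed the filter on low counts but had only 0 to 13 counts per library. Hoxd3 reached at most 2 counts in a library and Hoxd1 had 1 count in all. In Hoxb, Hoxb1 had 50 counts over the 9 libraries, of which 16 came from BCS-treated replicate 1, and Hoxb6 had 19, of which 12 came from wild type replicate 1. Hoxb2 had none. In Hoxc, Hoxc13 had 30 counts, with 1, 0 and 1 in wild type libraries, 2 in each Ctr1-null library and 11, 4 and 7 in the BCS-treated ones, and 4 genes (Hoxc5, Hoxc10, Hoxc11 and Hoxc12) had none. The 19 Hoxb and Hoxc genes, Hoxd1 and Hoxd3 did not pass the filter, and those with counts were tested only in the fit without it. That fit (edgeR, 34 Hox genes tested) called Hoxc13 higher in BCS-treated against wild type cells, where it called 8.25% of all genes, and no other of these genes in any comparison.

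The 3 wild type libraries gave the same set of transcribed Hox genes and differed in the levels of some. None of the 17 genes at 1 CPM or more differed by over 2-fold between any pair of wild type libraries. Over all genes tested the share that did was also small, at 3.81% (replicates 1 and 2), 3.69% (1 and 3) and 0.255% (2 and 3). Hoxd4, the other gene that passed the filter, was at 0.146, 0.216 and 0 CPM in them (7, 8 and 0 counts). The median absolute log2 difference (CPM plus 0.5) over the 18 genes that passed was 0.22 between replicates 1 and 2, 0.32 between 1 and 3 and 0.08 between 2 and 3, against 0.23, 0.22 and 0.08 over all genes tested. Replicate 1 lay above both others for 8 genes, below both for 6 and between them for 4. Relative to the mean of replicates 2 and 3, it ranged from -0.45 (log2) for Hoxa7 to 0.52 for Hoxd11, with 0.50 for Hoxd10, 0.49 for Hoxd12 and 0.46 for Hoxa6. The 8 genes above were Hoxa5, Hoxa6, Hoxa13, Hoxd8 and Hoxd10 to Hoxd13. The 6 below were Hoxa2 (-0.35), Hoxa4 (-0.36), Hoxa7, Hoxa9 (-0.28), Hoxa10 (-0.18) and Hoxa11 (-0.07), from the anterior, central and posterior parts of the cluster.

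**Figure D2:**
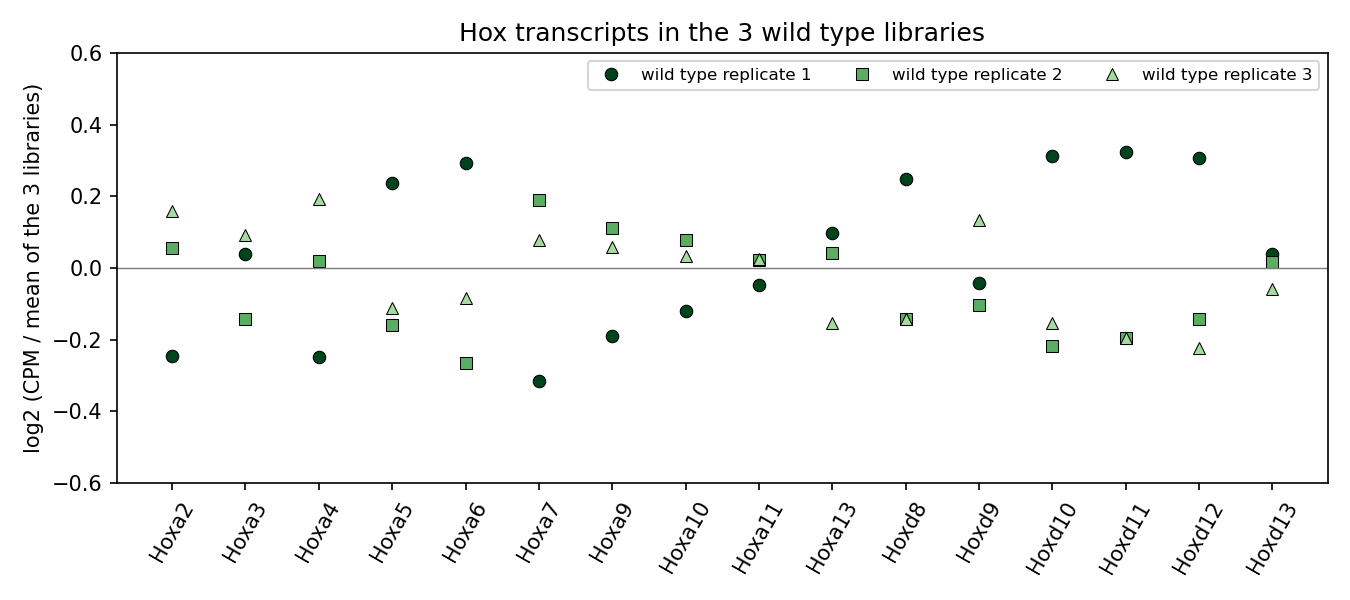
Log2 ratio of each wild type library's CPM to the mean of the 3 (vertical axis), for Hox genes at 1 CPM or more, with 1 marker per library. Replicate 1 lies above both others for 8 genes (Hoxa5, Hoxa6, Hoxa13, Hoxd8 and Hoxd10 to Hoxd13) and below both for 6 (Hoxa2, Hoxa4, Hoxa7 and Hoxa9 to Hoxa11).

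Ctr1-null against wild type sets cells lacking the copper importer against cells that have it. No Hox gene passed the test (edgeR quasi-likelihood fit of all 9 libraries, Benjamini-Hochberg adjusted over 18408 genes, called at an adjusted p under 0.05), and 3 of the 18 tested had an unadjusted p under 0.05. Over all genes 1 was called higher (0.00543%) and 1 lower (0.00543%), and 3239 had an unadjusted p under 0.05. DESeq2 called 2 Hox genes, Hoxa13 and Hoxd8, both higher, where it called 5.74% of all genes. The groups did not overlap for 5 Hox genes, all higher in null cells, against 9.49% of all genes higher and 8.62% lower. The median log2 fold change was 0.10 over the 18 Hox genes and 0.01 over all genes. Of the 18, 17 were at 1 CPM or more in each group, so they did not depend on one group to pass the filter.

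Hoxa13 had the smallest p of the Hox genes here, at a log2 fold change of 0.69 ± 0.16 (SE; adjusted p = 0.102, edgeR), with means of 12.0 ± 1.07 CPM for wild type and 19.4 ± 3.35 CPM for Ctr1-null cells (SD, n = 3). Hoxd8 was at 0.75 ± 0.22 (adjusted p = 0.147). Hoxa2, at 0.38 ± 0.17 (adjusted p = 0.293), and Hoxd12, at 0.40 ± 0.18 (adjusted p = 0.295), also had groups without overlap. Without wild type replicate 1, 4 Hox genes were called in edgeR, with Hoxa13, Hoxd8 and Hoxd12 higher and Hoxa7 lower, where 17.3% of all genes were called.

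BCS-treated against untreated Ctr1-null cells compares the same genotype with and without the chelator, and it shares the null libraries with the comparison before. No Hox gene was called in edgeR, and 3 had an unadjusted p under 0.05. Over all genes, 7 were called higher (0.0380%) and 3 lower (0.0163%), and 2708 had an unadjusted p under 0.05. Hoxa11 was at a log2 fold change of 0.27 ± 0.07 (adjusted p = 0.182, edgeR), Hoxd13 at 0.23 ± 0.07 (adjusted p = 0.204) and Hoxd12 at 0.56 ± 0.18 (adjusted p = 0.222). These 3 had groups without overlap, higher with BCS, where 13.4% of all genes did. Hoxa4, at -0.30 ± 0.20 (adjusted p = 0.509), was the 1 Hox gene with groups without overlap in the lower direction, where 10.9% of all genes were. DESeq2 called Hoxa11 and Hoxd13 higher, 2 of 18, where it called 3.86% of all genes. The median log2 fold change was 0.10 over the Hox genes and 0 over all.

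BCS-treated Ctr1-null cells against wild type differ in both genotype and treatment. In this comparison 4 of the 18 Hox genes rose and none fell, where 8.56% of all genes were called higher and 7.28% lower. Hoxa13 rose by 0.83 ± 0.16 (log2, SE; edgeR adjusted p = 0.0122), from 12.0 ± 1.07 to 21.3 ± 3.61 CPM (SD, n = 3). Hoxd12 rose by 0.96 ± 0.19 (adjusted p = 0.0128), from 24.2 ± 4.998 to 47.0 ± 12.0 CPM. Hoxd8 rose by 1.11 ± 0.22 (adjusted p = 0.0132), from 2.63 ± 0.428 to 5.67 ± 0.777 CPM. Hoxa11 rose by 0.36 ± 0.07 (adjusted p = 0.0156), from 32.3 ± 0.921 to 41.6 ± 2.47 CPM. Of the 4, 3 are posterior genes and Hoxd8 is a central one, where 9 of the 18 tested are posterior, 6 central and 3 anterior.

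Genes whose groups did not overlap, higher with BCS, but that were not called included Hoxd13 at 0.18 ± 0.07 (adjusted p = 0.111, edgeR) and Hoxa2 at 0.43 ± 0.17 (adjusted p = 0.116). In all, 7 of 18 Hox genes were higher without overlap and none lower, against 20.0% and 17.1% of all genes. The median log2 fold change was 0.32 over the Hox genes and 0.01 over all. The lowest fold changes were -0.20 ± 0.20 for Hoxa4, -0.18 ± 0.12 for Hoxa7 and -0.17 ± 0.10 for Hoxa9. Set beside each other for the 4 genes that rose, the log2 difference between untreated null and wild type cells was 0.69 for Hoxa13, 0.40 for Hoxd12, 0.75 for Hoxd8 and 0.10 for Hoxa11, and that between treated and untreated null cells was 0.13, 0.56, 0.36 and 0.27. In edgeR with all libraries and the filter, neither of these comparisons called any of the 4. DESeq2 called Hoxa13 and Hoxd8 in the first and Hoxa11 in the second, and edgeR called Hoxa13 in the first without the filter and Hoxa13, Hoxd8 and Hoxd12 in the first without wild type replicate 1. All 3 comparisons share libraries.

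The calls against wild type moved with single libraries. Without wild type replicate 1, 7 Hox genes were called, with Hoxa11, Hoxa13, Hoxd8, Hoxd11 and Hoxd12 higher and Hoxa7 and Hoxa9 lower, where 31.0% of all genes were called. Without wild type replicate 2, Hoxa13 alone was called (3.41% of all genes), without wild type replicate 3 no Hox gene was (3.01%), and without BCS-treated replicate 3 Hoxd12 alone was (3.41%). Hoxa11 was also lost without BCS-treated replicate 1. The adjusted p of the 4 genes in these fits went up to 0.0607 for Hoxa13, 0.0608 for Hoxd12, 0.0647 for Hoxd8 and 0.0701 for Hoxa11, with no change of direction. Some marker lists moved with the groups. The summed fat-cell markers were higher in all null libraries, treated and untreated, than in wild type. So were 6 skeletal and cardiac muscle markers, at 0.811 to 1.17 CPM in wild type, 1.73 to 4.40 CPM in Ctr1-null and 3.50 to 8.68 CPM in BCS-treated libraries, of which all but Des stayed under 1 CPM in every library and Myod1 was at 0. In BCS-treated against wild type libraries alone, the sums of the bone and cartilage, macrophage and blood, and germ and pluripotent cell lists were higher without overlap. The epithelial sum was lower in that comparison alone. The neural progenitor and glia sum was lower with BCS, at 134.5 to 158.6 CPM, than in both other groups. It was at 161.8 to 255.7 CPM in wild type and 183.5 to 216.3 CPM in untreated null libraries. All 5 germ and pluripotent markers stayed under 1 CPM in every library. Members of one list could also move in opposite directions. In the bone and cartilage list, mean Col2a1 went from 34.6 CPM in wild type to 82.7 CPM with BCS, and mean Runx2 from 66.97 to 60.75 CPM. In the neural progenitor and glia list, mean Nes went from 169 to 115 CPM and mean Fabp7 from 0.247 to 1.77 CPM. The part of these cell types in the differences was not tested.

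**Figure D3:**
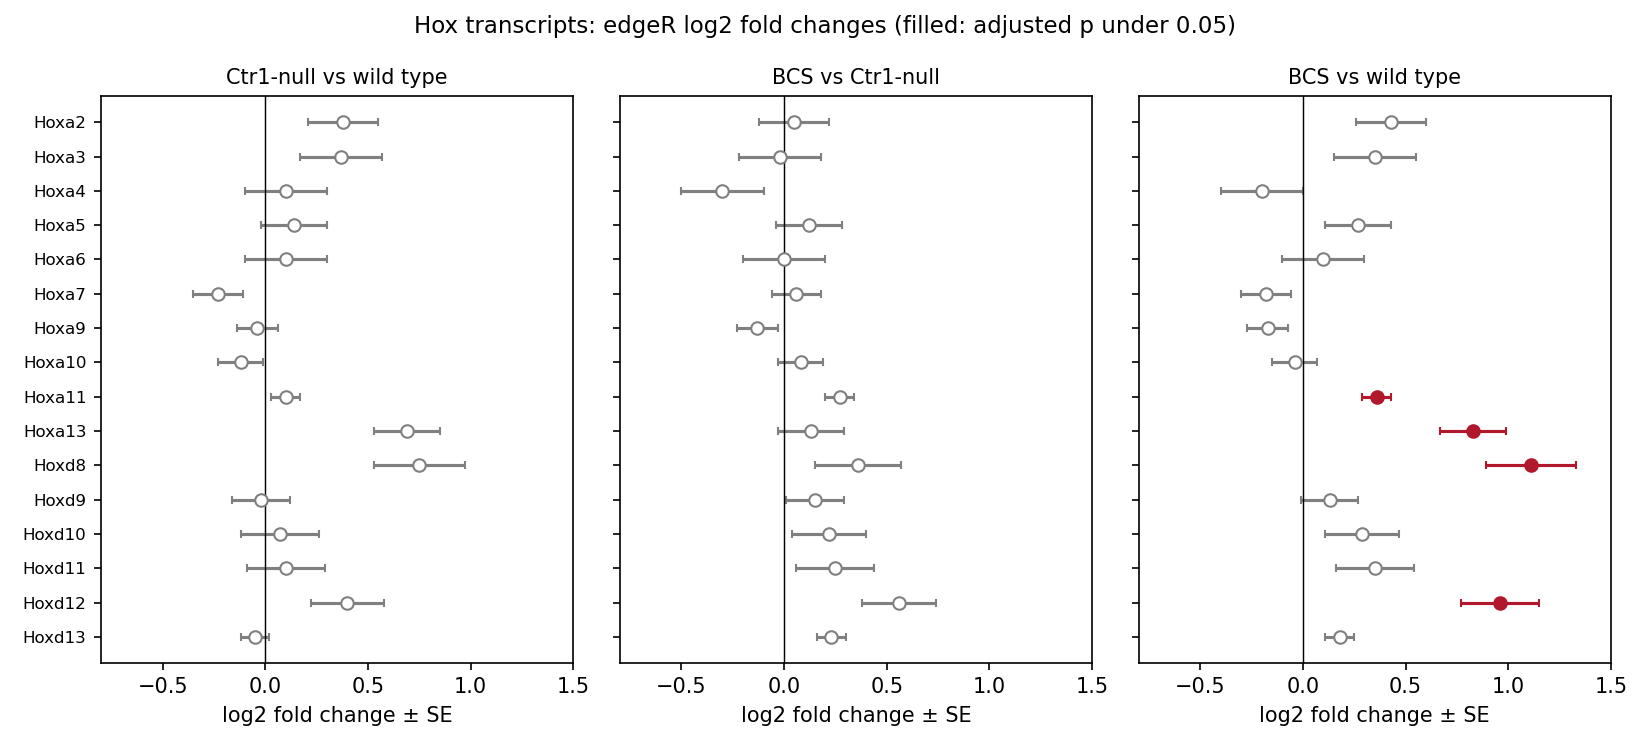
Log2 fold change ± SE (horizontal axis, edgeR) of Hox genes at 1 CPM or more in each of the 3 comparisons, 1 panel per comparison, with filled points for an adjusted p under 0.05. The filled points are Hoxa11, Hoxa13, Hoxd8 and Hoxd12 in BCS-treated Ctr1-null against wild type cells.

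**Figure D4:**
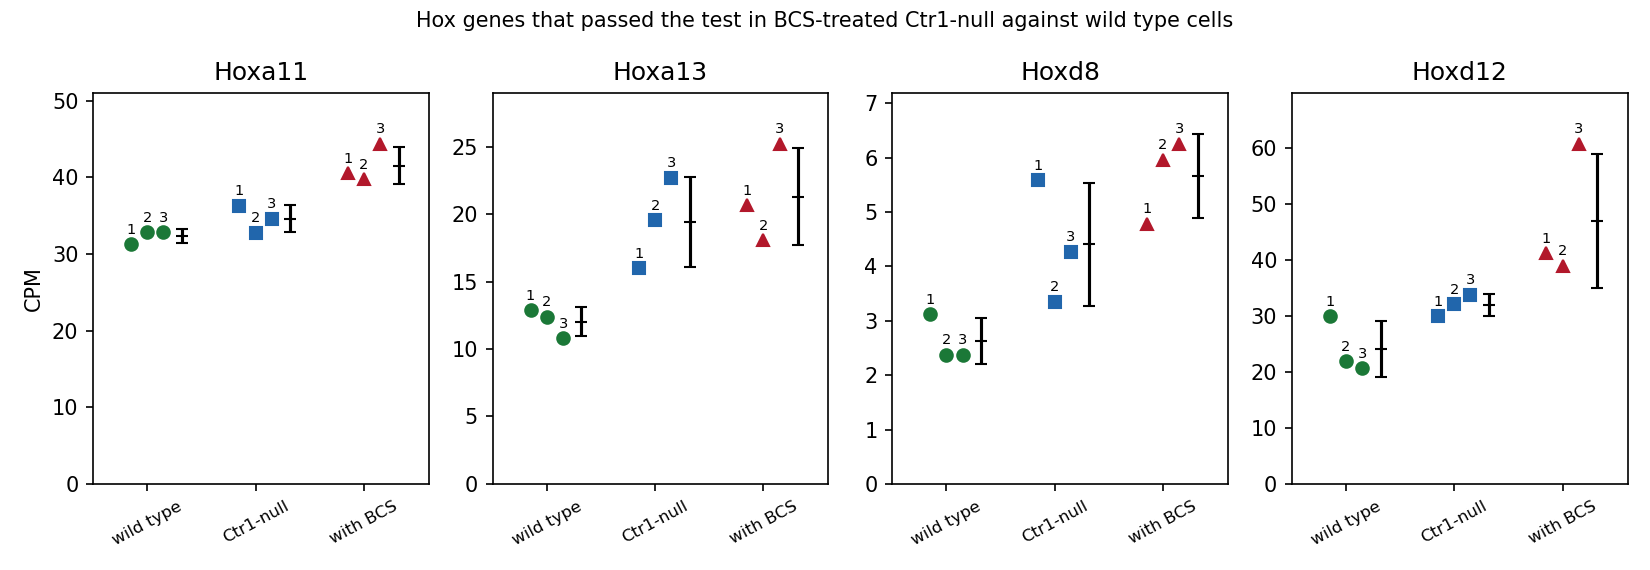
CPM of the 4 Hox genes called in BCS-treated Ctr1-null against wild type cells, 1 numbered point per library, with a cross line and bar for the mean ± SD of each group of 3; each vertical axis starts at 0 and has its own scale. For all 4 genes every BCS-treated library lies above every wild type one, and for Hoxd12 BCS-treated replicate 3, at 60.7 CPM, lies far above its group.

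Noncoding RNAs are transcribed within the clusters, and some share exons with Hox genes. The library kit is not stated to keep strand, so reads of a gene and an overlapping antisense RNA cannot be told apart. Between the first and last Hox gene, Hoxa held 20 other gene rows, of which 7 reached 1 CPM in a group mean, and Hoxd held 10, of which 1 did. None of the 9 other rows in Hoxb did, and all 7 in Hoxc, Hotair among them, had no counts. All 7 microRNA rows, which are short entries of 68 to 137 bases, were at 0. Among them was Mir196b, whose 85 bases lie within exons of the transcribed Hoxa9 on the same strand. A 0 in these rows therefore does not show that a microRNA was absent. Hoxa11os, the antisense RNA of Hoxa11, shares 800 bases with its exons (35.0% of their length) and was at 24.1, 29.8 and 28.7 CPM in wild type libraries, 22.6, 28.3 and 25.5 CPM in Ctr1-null and 26.8, 28.7 and 31.8 CPM in BCS-treated libraries. Its log2 fold change in BCS-treated against wild type cells was 0.08 ± 0.12 (adjusted p = 0.678), where that of Hoxa11 was 0.36 ± 0.07.

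In Hoxd the predicted gene Gm28309 shares 455 bases with Hoxd11 exons and 104 with Hoxd10 on the same strand. It was at 6.63, 5.92 and 6.49 CPM in wild type libraries, 8.35, 7.67 and 7.89 CPM in Ctr1-null and 9.70, 8.88 and 11.6 CPM in BCS-treated libraries, 3 groups without overlap. It rose in BCS-treated against wild type cells by 0.66 ± 0.13 (edgeR adjusted p = 0.0117), while Hoxd11 was at 0.35 ± 0.19 (adjusted p = 0.234) and Hoxd10 at 0.29 ± 0.18 (adjusted p = 0.305). Of the other rows in Hoxa, Hoxaas3 overlaps Hoxa7 by 586 bases and was at 3.09 to 4.75 CPM, Hotairm1 was at 1.57 to 2.95 CPM, and Hoxaas2 overlaps Hoxa3 by 503 bases and was at 2.24 to 6.03 CPM. Gm15050, 5730596B20Rik and 9530018H14Rik were the remaining rows of Hoxa above 1 CPM. In edgeR with all libraries, none of these 6 was called in any comparison. How the authors' tool divided shared reads is not given in the sources used here, so values of overlapping genes are uncertain to that extent.

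Genes that work with or on Hox genes were read from lists, of which edgeR with all libraries called no member in Ctr1-null against wild type or BCS-treated against untreated null cells. In BCS-treated against wild type cells the median over all genes was 0.01 (log2), with 8.56% called higher and 7.28% lower. TALE homeodomain proteins bind DNA together with HOX proteins. Of these 2 of 9 rose in BCS-treated against wild type cells, at a list median of 0.20, among them Pbx2 by 0.40 ± 0.09 (log2, edgeR adjusted p = 0.0221), which was at 26.8, 28.4 and 28.1 CPM in wild type libraries, 29.3, 29.4 and 32.9 CPM in Ctr1-null and 34.4, 34.2 and 41.2 CPM in BCS-treated libraries. For this gene the BCS-treated libraries were the highest. Polycomb proteins keep unused Hox genes silent, and 3 of 23 subunits rose and 3 fell, at a median of -0.06. Among them Ezh1, a methyltransferase subunit, rose by 0.53 ± 0.11 (adjusted p = 0.0173). Ezh2, the other methyltransferase subunit, fell by 0.38 ± 0.11 (adjusted p = 0.0393), and Rbbp7, a histone-binding subunit, fell by 0.72 ± 0.16 (adjusted p = 0.0206). Trithorax-group proteins and demethylases keep Hox genes active. Of 11, none rose and 2 fell, Wdr5 by 0.40 ± 0.12 (adjusted p = 0.0459) and Psip1 by 0.32 ± 0.10 (adjusted p = 0.049). In wild type replicates 1, 2 and 3 Rbbp7 was at 175.7, 282 and 286.6 CPM and Ezh2 at 91.8, 115.6 and 115.3 CPM. Wdr5 was at 65.6, 80.6 and 82.8 CPM and Psip1 at 170.5, 209.7 and 206.3 CPM. For each of these genes that fell, wild type replicate 1 was nearer to the null libraries than replicates 2 and 3 were. Ezh1 was at 16.8, 17.6 and 17.5 CPM in the wild type libraries.

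Retinoic acid and the Cdx factors switch Hox genes on in the embryo. Of 21 such genes 15 were tested, of which 4 rose and 2 fell in BCS-treated against wild type cells, at a median of 0.41. Rxra, a receptor partner, rose by 0.62 ± 0.10 (edgeR adjusted p = 0.00717), and Cyp26b1, which degrades retinoic acid, rose by 1.10 ± 0.28 (adjusted p = 0.0305). Crabp2, a retinoic acid carrier, fell by 1.82 ± 0.42 (adjusted p = 0.0217), and Rdh10, which makes its precursor, fell by 0.63 ± 0.17 (adjusted p = 0.033). Cdx1, Cdx2 and Cdx4 had 4, 1 and 0 counts in all. Crabp2 was at 20.2, 61.8 and 67.4 CPM in the wild type libraries and Cyp26b1 at 20.4, 9.14 and 9.89 CPM, so for both genes wild type replicate 1 was nearer to the null libraries than replicates 2 and 3 were.

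Of 9 tested genes that flank the clusters, Lnpk, beyond the 5′ end of Hoxd, fell by 0.27 ± 0.07 in BCS-treated against wild type cells (edgeR adjusted p = 0.0314) and no other was called. Evx2, a homeobox gene 8752 bases from Hoxd13, was at 8.44, 7.79 and 7.84 CPM in wild type libraries, 7.67, 7.46 and 8.98 CPM in Ctr1-null and 9.19, 9.96 and 10.5 CPM in BCS-treated libraries, with a log2 fold change of 0.30 ± 0.11 (adjusted p = 0.102) against wild type. Evx1, its counterpart 52617 bases from Hoxa13, had 1 count in all. Of the 2 homeobox neighbours, Evx2 was therefore transcribed in all libraries and Evx1 was not detected above the limit of a count of 0.

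Other transcription factors that mark position were counted from a list of 46, of which 33 were tested. In BCS-treated against wild type cells 4 rose and 3 fell, at a median log2 fold change of 0.16. Dlx5, a limb and face factor, rose by 1.85 ± 0.40 (edgeR adjusted p = 0.0178), with 0.260 to 0.666 CPM in the wild type and 1.22 to 1.97 CPM in the BCS-treated libraries. Prrx2, a limb mesenchyme factor, rose by 1.14 ± 0.25 (adjusted p = 0.0179). Emx2, which acts in the shoulder blade and the urogenital system, fell by 0.81 ± 0.16 (adjusted p = 0.0139), and Gata4, a heart and gonad factor, fell by 2.48 ± 0.55 (adjusted p = 0.0189). In the 3 wild type libraries, in replicate order, Prrx2 was at 52.7, 27.1 and 29.9 CPM and Gata4 at 0.749, 3.41 and 3.29 CPM, so replicate 1 again lay apart from the other two. The lists were drawn up with earlier results of these data known, and their counts are descriptions.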

How the data were processed

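RNA of 9 libraries was sequenced from total RNA with a TruSeq kit, per the labels' protocols, and GRCm38, Salmon, STAR, DESeq2 and FastQC are listed in the submitters' processing notes with neither version nor role. Estimated counts of each gene, whole and not normalised, make up the main table deposited by the authors. A further table deposited by the authors holds scaled signal values, from which factors per gene and library were taken as offsets in an alternative added after the data were seen. Identifiers were matched to GENCODE M21 without their version suffix: 52566 of 52661 rows matched, 95 did not, and 17728 rows had no counts.

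Counts were scaled by TMM, filtered with filterByExpr (minimum count 10, minimum total 15; 18408 genes left) and tested 2-sided in edgeR 4.0.16 (R 4.3.3) with quasi-likelihood, all 9 libraries and 3 groups (6 residual degrees of freedom, common biological coefficient of variation 0.169), adjusted by Benjamini and Hochberg. The fit was tested on simulated data. CPM use TMM-scaled totals. SE was taken as the log2 fold change over the root of F. Named by rule were values per library for Hox genes at 1 CPM or more in any group, and statistics for members called, the 3 of smallest p per comparison and those whose groups did not overlap. Some other values, and Hoxd4's promoter, were picked after values were seen, and from each related list up to 2 called genes per direction were named, with further ones picked later. The members and lists were chosen with earlier results of these data known. Alternatives were other scalings and filters, DESeq2 1.42.0, limma-voom (3.58.1), a fit of the 2 groups compared, a replicate block, another gene length, other levels of detection and leaving out each library. Promoters are from RefSeq (GRCm38.p6). No sample was left out. Values of some genes, 1 Hox gene among them, are not reported here because they are withheld for evaluation.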

Additional observations from a re-analysis of the deposited data

How the results depend on the processing

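Of 288 combinations of 16 log2 fold changes of Hox genes and 18 alternatives, 267 kept direction and side of the threshold, 11 lost a call, 10 gained one and 0 reversed. All 11 losses fell on the 4 genes called in BCS-treated against wild type cells. Of 18 alternatives, Hoxa11 lost its call in 4, Hoxd8 in 3, Hoxa13 in 2 and Hoxd12 in 2. The other results were not called in the main fit. The cause of each change was not tested. In Ctr1-null against wild type, where 2 genes in all and 0 Hox genes were called, all genes called numbered 4 with DESeq2's size factors, 4 with library size only, 265 without a filter, 4 with a filter of 1 CPM in 3 libraries, 1056 in DESeq2, 6 in limma-voom, 4 with the authors' factors and 1 with only the 2 groups compared, and Hox genes called numbered 1 without a filter (Hoxa13) and 2 in DESeq2. In BCS-treated against untreated null cells, with 10 genes in all and 0 Hox genes called, there were 114 without a filter and 711 in DESeq2, with 2 Hox genes in DESeq2. Leaving out each library in turn gave 1 to 3254 genes and 0 to 4 Hox genes in Ctr1-null against wild type, 0 to 183 genes and 0 Hox genes in BCS-treated against untreated null cells, and 568 to 5840 genes and 0 to 7 Hox genes in BCS-treated against wild type cells, against 2916 and 4 with all libraries. The highest counts over all genes came without wild type replicate 1 in each comparison.

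With library size only, the median of all genes moved to 0.11 (log2) in BCS-treated against wild type cells, with 2064 genes higher and 784 lower against 1576 and 1340, and 6 Hox genes called (Hoxd13 among those added). Without a filter 5 were called there, with Hoxc13 added. With the replicate block 1, 2 and 1543 genes were called in the 3 comparisons, and 0, 0 and 4 Hox genes. Same-numbered libraries did not consistently deviate together, with 4 of 9 correlations over 0.1 and a range of -0.483 to 0.429. The highest was between replicates 3 of Ctr1-null and BCS-treated cells. Because the pattern was mixed, the number was not taken as a pairing. By the longest transcript 3 of 18 genes kept their rank by level per length. Hoxb, Hoxc and Hoxd1, Hoxd3 and Hoxd4 lay below 0.3 CPM in every library, which limits the differences that can be detected in them, and of these genes only Hoxc13 was called, in the fit without a filter.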

Other observations

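The limb-type T-box factors and a few other positional factors, picked after their values were seen, were transcribed beside the Hox pattern as follows. Tbx5, known for its role in the forelimb and heart, was at 26.9, 21.4 and 22.5 CPM in wild type libraries, 20.8, 30.8 and 30.8 CPM in Ctr1-null and 36.6, 32.8 and 37.3 CPM in BCS-treated libraries, and rose in BCS-treated against wild type cells by 0.59 ± 0.15 (log2, edgeR adjusted p = 0.0316). The hindlimb factor Tbx4 was at 0.456 to 3.00 CPM, highest in wild type replicate 1. Pitx1, also a hindlimb factor, was at 0.0581 to 0.749 CPM and fell by 2.38 ± 0.67 in BCS-treated against wild type cells (adjusted p = 0.0407), from levels under 1 CPM in every library. Tbx15, a skin and skeletal factor, was at 202 to 248 CPM, in all 9 libraries beside the posterior Hox genes. The limb and heart factor Hand2 was at 9.59 to 14.4 CPM, and Meis2, a TALE partner of HOX proteins, at 18.0 to 22.8 CPM.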
